A study of Drosophila melanogaster with 6 samples.

Results

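The Cpr genes of *Drosophila melanogaster* encode cuticular proteins that carry the Rebers and Riddiford (R&R) consensus. They were taken as every row of the deposited count table whose FlyBase symbol starts with Cpr and a digit, which gave 70 of the 17478 genes in the table. Of these, 26 had a mean of at least 10 reads over the 6 libraries and are described here, and 44 had fewer. The choice used the symbol and the mean over all libraries, and no difference between the groups.

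RNA was measured in wing imaginal discs, the larval epithelial sacs that form the adult wing and the dorsal thorax, dissected from females of the third instar grown at 25 °C on yeast-cornmeal food without further treatment. The deregulated discs carried *UAS-CycGΔP, da-Gal4/+* and the control discs carried *da-Gal4/+*, with 3 libraries per genotype from independent crosses and 150 pooled discs per extraction. A numbered disc below names a library, that is a pool of discs, and the spread between single discs was not measured. *CycGΔP* encodes Cyclin G without its PEST-rich C-terminal domain. The *da-Gal4* driver, present in both groups, is ubiquitous, so that in *CycGΔP* larvae the transgene was driven throughout the animal and not in the disc alone, and the endogenous *CycG* gene was kept in both groups. The comparison asks which genes were deregulated in discs of *CycGΔP* larvae.

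Insect cuticle is a layered material of chitin fibres and proteins that epidermal cells secrete on their apical side. The R&R consensus is a stretch of the protein that binds chitin, and members are sorted by its sequence into an RR-1 class, found mostly in soft cuticle, and an RR-2 class, found mostly in hard cuticle. Many of the genes sit in tandem clusters and are expressed in short waves around each moult and at metamorphosis, under the control of ecdysone. The wing disc of the larva has not yet laid down pupal or adult cuticle. The number and capital letter of a Cpr symbol give the subdivision of the polytene chromosome at which the gene lies, and any further characters tell apart genes within it.

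Total counts ranged from 21853360 to 40059450 per library, and control totals were 1.28 times those of *CycGΔP* discs. Levels are given as CPM, counts relative to the TMM-scaled total of the tested genes in the library, and 3 reads corresponded to between 0.0736 and 0.143 CPM depending on the library. *CycG* itself was at 1022, 1012 and 900 CPM in *CycGΔP* discs 1, 2 and 3 and at 723, 788 and 686 CPM in control discs 1, 2 and 3, a log2 fold change of 0.42 ± 0.088 (SE) with an edgeR adjusted p of 0.0909. Reads of *CycG* can come from the transgene and from the endogenous gene, which were not told apart here. With RT-qPCR primers outside the transgene, the paper found the endogenous gene lower in *CycGΔP* discs. The 11 wing disc markers found in the table, among them *nub*, *vg* and *ap*, summed to between 2088 and 2287 CPM in *CycGΔP* discs and between 1967 and 2303 CPM in control discs. RNA of other tissues was also present. The 7 fat body markers summed to 4686, 7871 and 7012 CPM in *CycGΔP* discs 1, 2 and 3. In control discs 1, 2 and 3 they summed to 22890, 2222 and 742 CPM. The 11 muscle markers summed to between 194 and 221 CPM in *CycGΔP* discs against 437, 321 and 259 CPM in control discs 1, 2 and 3. Of these muscle genes, 7 of 11 were lower in every *CycGΔP* library than in every control library (12.1% of all tested genes), and *Mhc*, the myosin heavy chain, passed the edgeR test (log2 fold change -2.34, adjusted p of 0.0449, 2.8e-09 in DESeq2 and 0.106 in limma voom). DESeq2 called 7 of the 11 lower (3.07% of the genes it gave an adjusted p), and limma voom called 0. Only 1 of the 11 had a log2 fold change above 0, *Mef2* at 0.049. Salivary gland markers, at between 9.47 and 72.4 CPM in the 5 other libraries, reached 206 CPM in *CycGΔP* disc 3. The 4 tracheal markers found in the table summed to between 597 and 898 CPM in *CycGΔP* discs and between 652 and 1015 CPM in control discs. Haemocyte markers were at between 73.5 and 213 CPM and neuronal markers at between 66.6 and 138 CPM. No defining marker found in the table for any of these tissues was at 0 in a whole group.

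No Cpr gene passed the edgeR test. The authors made their own calls with DESeq2, which was run here as an alternative and called 6 of the 26 described genes. With edgeR's quasi-likelihood fit, 0 of the 26 described genes had an adjusted p under 0.05, where 134 of all 9408 tested genes did (1.42%, with 0.691% higher and 0.733% lower). The lowest adjusted p of the family was 0.0613, for *Cpr49Ah*. At an unadjusted p under 0.05, 13 of 26 genes were counted against 14.7% of all tested genes. Of these 13, 4 were higher in *CycGΔP* discs (6.65% of all tested genes) and 9 were lower (8.07%). DESeq2 called 6 of 26 (5.44% of the genes it gave an adjusted p), with *Cpr49Ac*, *Cpr12A* and *Cpr49Ag* higher (2.37%) and *Cpr49Ah*, *Cpr56F* and *Cpr64Aa* lower (3.07%). With limma voom 2 were called (1.29%), *Cpr49Ah* and *Cpr56F*, both lower (0.606%) and none higher (0.68%). At an adjusted p under 0.1, edgeR counted 3 (2.95%), *Cpr49Ah*, *Cpr49Ag* and *Cpr56F*. An exact permutation test of 3 libraries against 3 cannot give a two-sided p below 0.1, so that single genes were tested only in fits across all genes.

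Fold changes of the family had both signs. Those of the 26 genes ranged from -2.19 for *Cpr11B* to 0.73 for *Cpr49Ac* on the log2 scale, with a median of -0.56 against 0.012 for all tested genes. They were below 0 for 19 genes and above 0 for 7, where 47.7% of all tested genes were below 0 and 52.3% above. In 4 genes every *CycGΔP* library was above every control library (9.98% of all tested genes), in 8 genes every *CycGΔP* library was below every control library (12.1%), and in 14 the groups overlapped (groups did not overlap in 22% of all tested genes). The values below 0 were mostly those of low-level genes. Of the 9 genes whose mean level reached 10 CPM, 4 were above 0 and 5 below, with a median of -0.044 (51.5% of tested genes of that level were below 0). Of the 17 genes under 10 CPM, 3 were above 0 and 14 below, with a median of -0.90, whereas 39.6% of the 3033 tested genes of that level were below 0, with a median of 0.14. *Cpr11B*, with a mean of 9 reads in *CycGΔP* discs, was described only because of its reads in control discs, so that its place among the lower genes was given by the minimum; the other 25 averaged 10 reads or more in both groups. Because whole discs were measured, fewer cells of a type and less RNA per cell cannot be told apart.

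**Figure D1:**
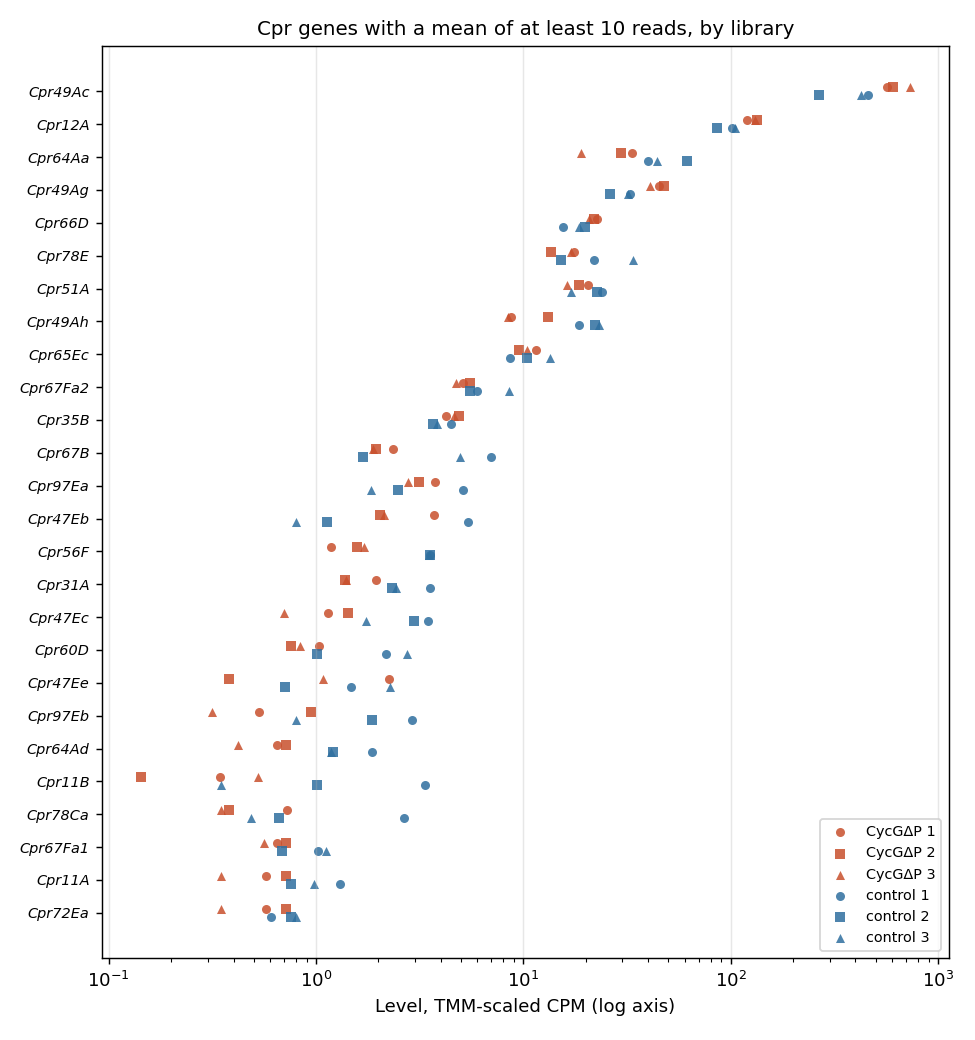
Level of each of the 26 described Cpr genes in the 6 libraries, in TMM-scaled CPM on a log axis, with CycGΔP discs in red, control discs in blue and the replicate number given by the symbol. Cpr49Ac, at between 267 and 734 CPM, lies far above the rest in CPM, and in the lower part of the plot control disc 1 is most often the rightmost point.

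*Cpr49Ac* (FBgn0033725, arm 2R, 12386666 to 12390057 in dm6, + strand) was the most abundant member, both in CPM and per kilobase of exon, at 241 CPM per kb over the 6 libraries. Its level was 568, 605 and 734 CPM in *CycGΔP* discs 1, 2 and 3 and 457, 267 and 427 CPM in control discs 1, 2 and 3. All *CycGΔP* libraries were thus above all controls, and the mean was 1.66 times higher, at 636 ± 87.0 CPM against 384 ± 102 CPM (SD, n = 3 in each group). The log2 fold change was 0.73 ± 0.217 (SE) with an adjusted p of 0.194 in edgeR and 0.0109 in DESeq2 (0.0109 to 0.472 over the alternatives). The spread between control libraries was wide, with control 2 well below the others.

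*Cpr49Ac* accounted for the difference in the summed level of the family. The 26 genes summed to 879, 920 and 1023 CPM in *CycGΔP* discs and to 776, 563 and 752 CPM in control discs, a ratio of 1.35. *Cpr49Ac* provided 64.4, 65.4 and 71.6% of the Cpr reads in the first group and 58.6, 47.2 and 56.4% in the second. Without it the sums were 311, 316 and 289 CPM against 319, 296 and 326 CPM, which overlap, with a ratio of 0.973. The family as a whole was therefore higher in *CycGΔP* discs by its sum and lower by its median, and the difference in the sum was that of a single gene. The near-equal sums without *Cpr49Ac* held genes that differed in both directions. *Cpr12A*, for example, had means of 129 CPM in *CycGΔP* discs and 97.8 CPM in control discs, and *Cpr64Aa* of 27.3 and 48.6 CPM. No test was run on these sums.

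*Cpr12A* (FBgn0030494, X, 13543643 to 13544907, + strand) ranked second per kilobase, at 132 CPM per kb. It was at 121, 134 and 132 CPM in *CycGΔP* discs and 102, 86.3 and 105 CPM in control discs. These groups did not overlap, and the difference was small, 1.32 times in the means, with a log2 fold change of 0.40 ± 0.0968 (SE) and adjusted p values of 0.122 in edgeR and 0.00843 in DESeq2 (0.00843 to 0.364 over the alternatives). *Cpr66D* (FBgn0052029, 3L, 8640439 to 8643584, + strand), whose product is also found in the adult corneal lens, showed the smallest of the differences without overlap in this direction. It was at 22.8, 21.9 and 20.8 CPM against 15.6, 19.9 and 18.6 CPM, a log2 fold change of 0.28 ± 0.106 (SE) with an edgeR adjusted p of 0.290.

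*Cpr49Ag* and *Cpr49Ah* belong to the same cluster as *Cpr49Ac*, lie on the same strand 5438 bases apart, and had fold changes of opposite sign. *Cpr49Ag* (FBgn0033730, 2R, 12407793 to 12408523) was at 45.2, 47.7 and 40.8 CPM in *CycGΔP* discs and at 32.6, 26.3 and 32.0 CPM in control discs. All *CycGΔP* libraries were above all controls, by 1.47 times in the means, with a log2 fold change of 0.56 ± 0.106 (SE) and an edgeR adjusted p of 0.0704. *Cpr49Ah* (FBgn0033731, 2R, 12413962 to 12415170) was at 8.73, 13.1 and 8.45 CPM in *CycGΔP* discs and at 18.5, 22.2 and 23.1 CPM in control discs. Here every *CycGΔP* library was below every control, and the control mean was 2.11 times higher. The log2 fold change was -1.08 ± 0.194 (SE), with adjusted p values of 0.0613 in edgeR, 5.21e-05 in DESeq2 and 0.0484 in limma voom. This gene came closest to a call in edgeR, which called it without the expression filter, with a filter of at least 10 reads in every library, and without *CycGΔP* replicate 2 (adjusted p of 0.0431, 0.0448 and 0.0457), whereas its adjusted p over all 13 alternatives ranged from 5.21e-05 to 0.235. The ratio of *Cpr49Ag* to *Cpr49Ah* reads, which does not depend on library scaling, was 5.18, 3.64 and 4.83 in *CycGΔP* discs and 1.77, 1.18 and 1.38 in control discs. This pair was chosen after its values were seen, and the ratio is given as a description.

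**Figure D2:**
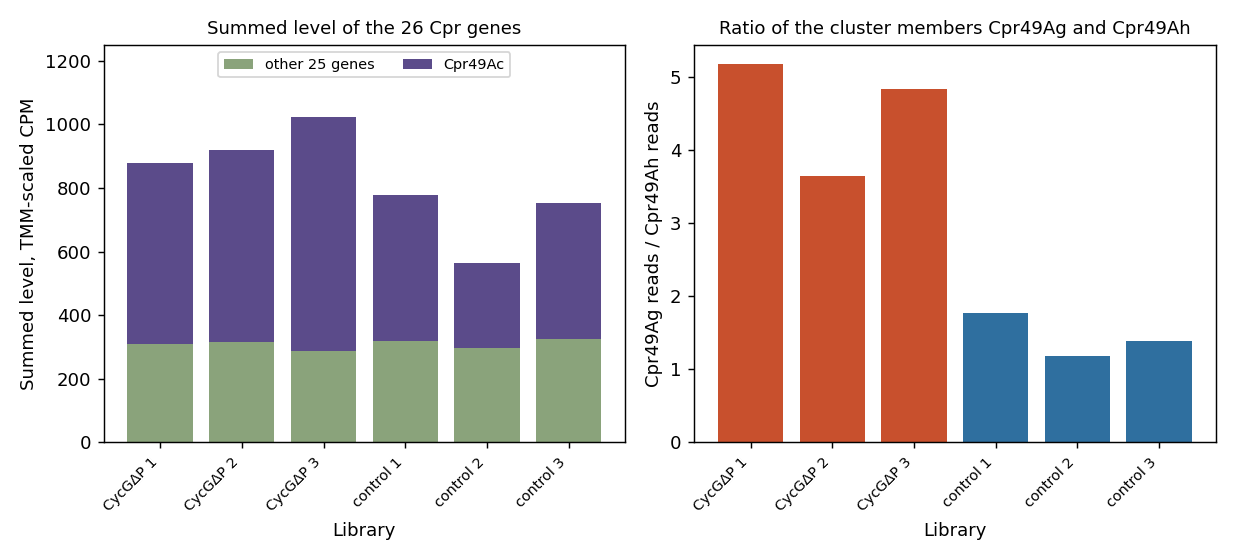
Left, summed level of the 26 Cpr genes in each library in TMM-scaled CPM, split into Cpr49Ac and the 25 other genes. Right, reads of Cpr49Ag divided by reads of Cpr49Ah in each library, between 3.64 and 5.18 in CycGΔP discs (red) and between 1.18 and 1.77 in control discs (blue).

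Among the abundant members, *Cpr64Aa* (FBgn0035510, 3L, 4207838 to 4209178, - strand) was lower in *CycGΔP* discs. It was at 33.5, 29.5 and 19.0 CPM against 40.1, 61.6 and 44.2 CPM in control discs. The groups did not overlap, and the log2 fold change was -0.83 ± 0.254 (SE), with adjusted p values of 0.205 in edgeR and 0.0220 in DESeq2 (0.0220 to 0.427 over the alternatives). Its cluster member *Cpr64Ad* (FBgn0035513, 3L, 4215379 to 4216414), 6200 bases away on the other strand, was also lower in every *CycGΔP* library, at 0.648, 0.713 and 0.419 CPM against 1.85, 1.20 and 1.18 CPM (log2 fold change -1.25 ± 0.373 SE, edgeR adjusted p of 0.188).

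The remaining members of the 10 most abundant showed no unadjusted p under 0.05. *Cpr78E* (FBgn0037114, 3L, 21666452 to 21666980) was at 17.5, 13.6 and 16.9 CPM in *CycGΔP* discs and 21.9, 15.1 and 33.9 CPM in control discs. Its groups overlapped, and its log2 fold change of -0.56 ± 0.292 (SE, edgeR adjusted p of 0.434) became -0.21 without control replicate 3. *Cpr51A* (FBgn0033942, 2R, 14512559 to 14515211) was at 20.6, 18.6 and 16.2 CPM against 23.9, 22.6 and 17.0 CPM, with overlapping groups (-0.20 ± 0.154, adjusted p of 0.570). *Cpr65Ec* (FBgn0035737, 3L, 7093204 to 7093841) was at 11.5, 9.55 and 10.4 CPM against 8.63, 10.4 and 13.4 CPM, with overlapping groups (-0.044 ± 0.178, adjusted p of 0.929). Its sign turned to 0.019 without *CycGΔP* replicate 2 and to 0.14 without control replicate 3. *Cpr67Fa2* (FBgn0036109, 3L, 10891714 to 10892516) was at 5.11, 5.51 and 4.71 CPM against 5.98, 5.52 and 8.53 CPM (-0.39 ± 0.206, adjusted p of 0.441). The groups did not overlap, but *CycGΔP* disc 2 and control disc 2 were nearly equal. *Cpr67Fa1* and *Cpr67Fa2* are named as copies of each other and lie 1013 bases apart, and since only unambiguously placed reads were counted, the levels of both are uncertain.

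**Figure D3:**
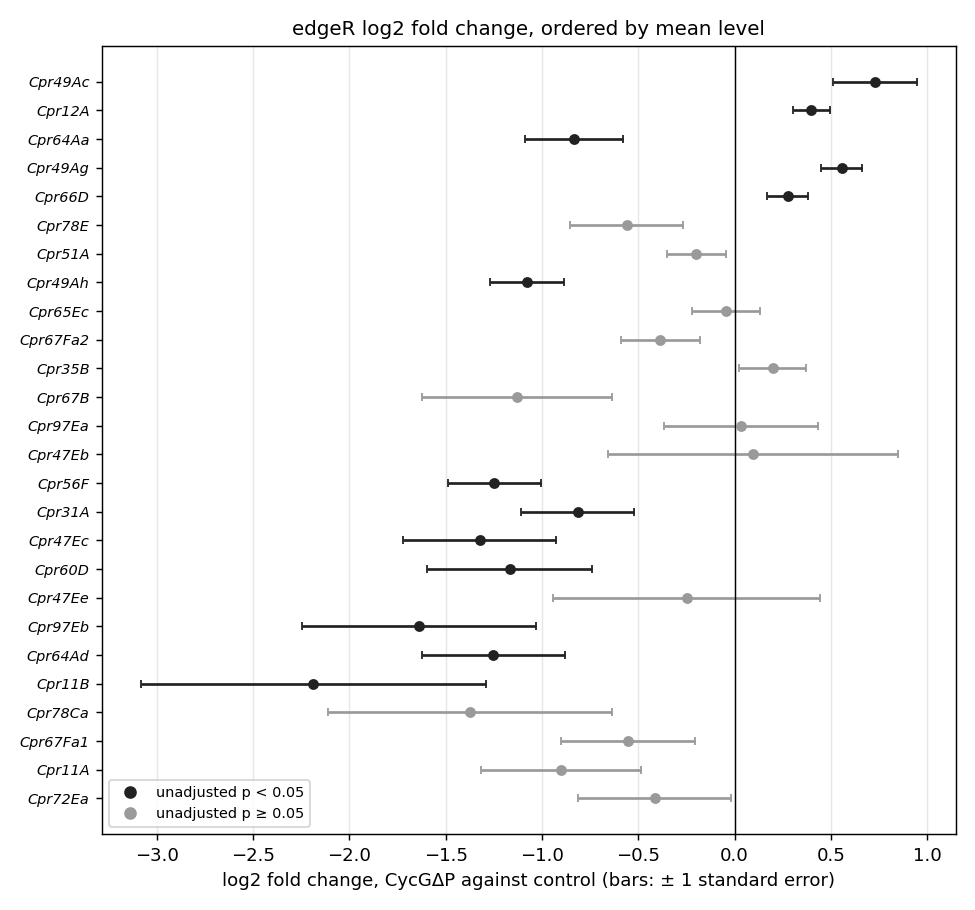
Log2 fold change of CycGΔP against control discs for the 26 Cpr genes, ordered from the highest mean level at the top, with bars of 1 standard error from edgeR; black points had an unadjusted p under 0.05. The 4 black points above 0 are Cpr49Ac, Cpr12A, Cpr49Ag and Cpr66D, and the 9 below 0 include 7 genes under 10 CPM.

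Among the 9 genes of higher level, 4 of 9 were higher at an unadjusted p under 0.05 (6.62% of tested genes of that level) and 2 lower (9.55%). Below 10 CPM, 7 genes had an unadjusted p under 0.05, and they were lower in *CycGΔP* discs (4.95% of tested genes of that level were lower at this p, and 6.73% higher). Of these, *Cpr11B* reached the minimum of 10 reads only through the control discs. *Cpr56F* (FBgn0034499, 2R, 20288371 to 20291945, - strand) was the clearest of them. It was at 1.18, 1.57 and 1.71 CPM in *CycGΔP* discs, from 31, 33 and 49 reads, and at 3.55, 3.53 and 3.52 CPM in control discs, from 111, 144 and 101 reads. The control libraries were nearly equal and had a mean 2.38 times that of *CycGΔP* discs. The log2 fold change was -1.25 ± 0.241 (SE), with adjusted p values of 0.0710 in edgeR, 0.00150 in DESeq2 and 0.0484 in limma voom (0.00150 to 0.244 over the alternatives).

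*Cpr31A* and *Cpr47Ec* also did not overlap. *Cpr31A* (FBgn0053302, 2L, 10054213 to 10055935) was at 1.94, 1.38 and 1.40 CPM against 3.55, 2.33 and 2.44 CPM (log2 fold change -0.82 ± 0.294 SE, edgeR adjusted p of 0.264). *Cpr47Ec* (FBgn0033600, 2R, 11259106 to 11259976) was at 1.14, 1.43 and 0.698 CPM against 3.45, 2.97 and 1.74 CPM (-1.32 ± 0.397, adjusted p of 0.191). In both, control disc 1 was the highest library.

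The other genes of this kind overlapped between groups. *Cpr60D* (FBgn0050163, 2R, 24662682 to 24663406) had 27, 16 and 24 reads in *CycGΔP* discs and 68, 41 and 79 reads in control discs, where control disc 2 was, at 1.01 CPM, just below *CycGΔP* disc 1 at 1.03 CPM (-1.17 ± 0.428, adjusted p of 0.270). *Cpr97Eb* (FBgn0039481, 3R, 27089704 to 27091130) had 14, 20 and 9 reads against 91, 76 and 23 reads (-1.64 ± 0.608, adjusted p of 0.274). *Cpr11B* (FBgn0030398, X, 12553124 to 12554235) had the largest fold change of the 26 described genes, and it depended on few reads: 9, 3 and 15 in *CycGΔP* discs and 105, 41 and 10 in control discs (-2.19 ± 0.896, adjusted p of 0.333). For the last 2 genes control disc 3 lay within the range of the *CycGΔP* discs, and with each library left out in turn the log2 fold change of *Cpr11B* ranged from -2.66 to -1.01, the latter without control replicate 1.

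The 9 described genes not yet given with values by library (*Cpr35B*, *Cpr67B*, *Cpr97Ea*, *Cpr47Eb*, *Cpr47Ee*, *Cpr78Ca*, *Cpr67Fa1*, *Cpr11A* and *Cpr72Ea*) had unadjusted p values between 0.0581 and 0.935. Their log2 fold changes ranged from -1.38 for *Cpr78Ca* to 0.20 for *Cpr35B*, and *Cpr11A* was the only one whose groups did not overlap, with 15, 15 and 10 reads in *CycGΔP* discs and 41, 31 and 28 in control discs. *Cpr47Eb* showed the spread these genes could have among controls, at 5.43, 1.13 and 0.801 CPM in control discs 1, 2 and 3 around the 3.70, 2.04 and 2.13 CPM of *CycGΔP* discs.

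**Figure D4:**
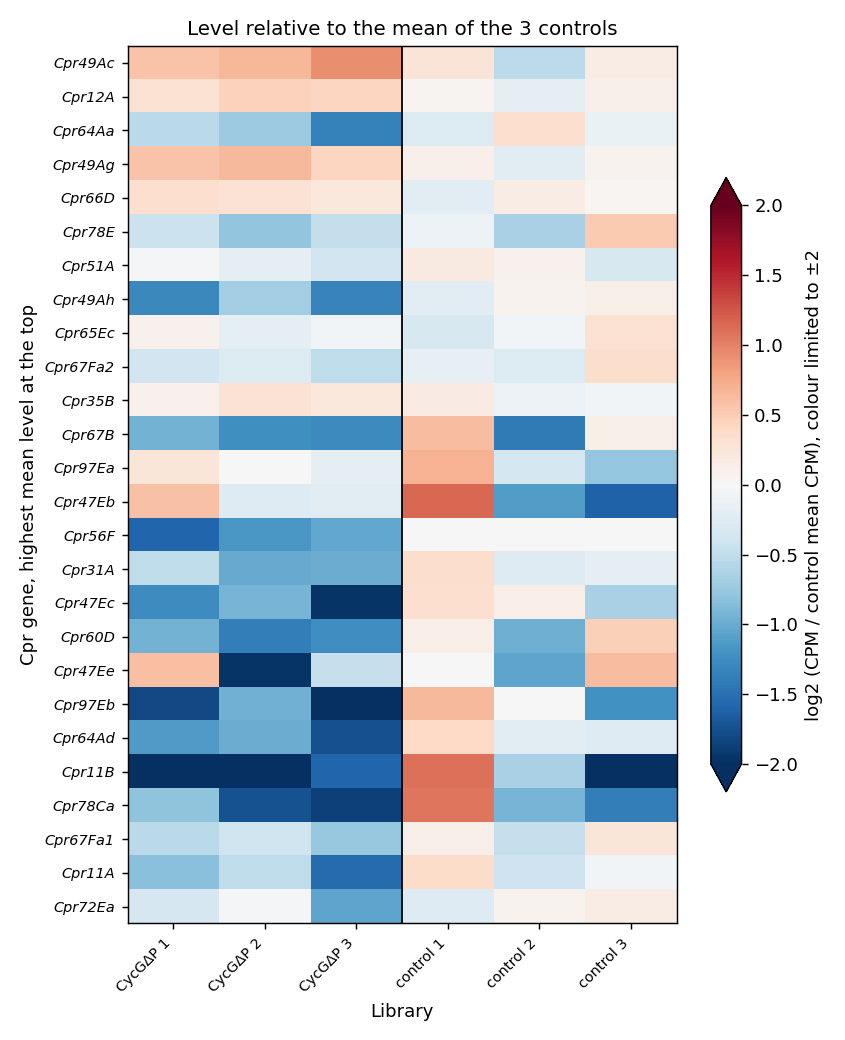
Level of each Cpr gene in each library relative to the mean of the 3 control libraries, as log2, with genes ordered from the highest mean level at the top, red above and blue below the control mean and the colour limited to 2 either way. Control disc 1 is red for many of the lower genes, most deeply for Cpr47Eb, Cpr11B and Cpr78Ca, and the CycGΔP columns are blue for most of them.

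Most low-level members were highest in the same control library. Of the 17 genes under 10 CPM, 11 had their highest level of all 6 libraries in control disc 1 and 5 in control disc 3, and among the 3 controls disc 1 was the highest for 12, disc 3 for 5 and disc 2 for 0. Their summed level was 30.7, 27.4 and 24.7 CPM in *CycGΔP* discs and 55.9, 32.0 and 38.4 CPM in control discs, so that the groups did not overlap, with control disc 2 close above *CycGΔP* disc 1. The median coefficient of variation of these 17 genes was 32.4% between control libraries and 26.0% between *CycGΔP* libraries, against 26.0% and 27.2% for all tested genes of that level. Without control replicate 1, the median log2 fold change of the 17 genes was -0.62 in place of -0.90, the number of described genes lower at an unadjusted p under 0.05 was 5 in place of 9. Against the 2 other controls, 7 genes in place of 4 lay above all controls (17.6% of all tested genes) and 9 in place of 8 below them (17.2%), where fewer libraries make overlap rarer for any gene. Control disc 1 was also the library with the highest sums of fat body and muscle markers given above, and the muscle markers were lower in *CycGΔP* discs as these genes were. The fat body sums were higher in every *CycGΔP* disc than in control discs 2 and 3. The part of other tissues in the Cpr values was not tested.

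The genes fall into 12 clusters of members at most 50 kb apart, which hold 49 of the 70 genes, and 21 genes lie alone. Of the 26 described genes, 15 lie in clusters and 11 alone. Of the family, 35 genes are on 3L, with 10 described, 21 on 2R with 9, 5 on 2L with 2, 5 on 3R with 2, and 4 on X with 3. Whole clusters were near silent. No member of the clusters *Cpr50Ca* to *Cpr50Cb*, *Cpr62Ba* to *Cpr62Bc*, *Cpr65Au* to *Cpr65Az* and *Cpr76Ba* to *Cpr76Bd*, with 16 genes in all, reached a mean of 10 reads. The cluster from *Cpr49Aa* to *Cpr49Ah* (2R, 12376626 to 12415170) held 8 members of very unequal level: *Cpr49Ac* with a mean of 14344 reads, *Cpr49Ag* with 1062 and *Cpr49Ah* with 482.5, against 9.5 for *Cpr49Af* and none in any library for *Cpr49Aa*. *Cpr49Ad*, which lies 838 bases beyond the end of *Cpr49Ac* on the other strand, had a mean of 1 read. Of the 5 clusters with at least 2 described genes, 3 held genes with fold changes of both signs: the *Cpr49A* genes, *Cpr97Ea* (0.034) beside *Cpr97Eb* (-1.64), and *Cpr47Eb* (0.098) beside *Cpr47Ec* (-1.32) and *Cpr47Ee* (-0.25). The groups of *Cpr97Ea* and of *Cpr47Eb* overlapped.

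Of the 44 genes below the minimum, 8 had no read in any library (*Cpr49Aa*, *Cpr50Ca*, *Cpr57A*, *Cpr65Ax1*, *Cpr65Ea*, *Cpr65Eb*, *Cpr76Ba* and *Cpr76Bb*), 18 had a mean above 0 and under 1 read, and 18 had a mean from 1 to under 10 reads. Of this last group, 11 had a higher mean level in control discs and 7 in *CycGΔP* discs. For the 8 genes with no read, 3 reads correspond to the CPM given above, and a level under it could have gone unread in a single library. Just inside the minimum were *Cpr72Ea* (a mean of 18.8 reads), *Cpr11A* and *Cpr67Fa1* (23.3 each), and just outside it *Cpr49Af* (9.5), *Cpr73D* (8.67) and *Cpr66Cb* (7.67). *Cpr49Af* passed edgeR's expression filter as the only gene under the minimum, with 10, 1 and 5 reads in *CycGΔP* discs and 12, 8 and 21 in control discs. Between 46 and 47 of the 70 genes had at least 1 read in each library. The exons of none of the 26 described genes overlap those of another gene, and 5 genes below the minimum (*Cpr47Ea*, *Cpr57A*, *Cpr65Au*, *Cpr67Fb* and *Cpr73D*) do overlap another gene. Libraries were strand specific, but whether the counting used strand is not stated in the sources used here.

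Other genes of the cuticle and its making were counted for comparison. Of 27 R&R genes with other names, such as the larval cuticle proteins *Lcp1* to *Lcp4*, 7 were tested, and all 7 were below 0 (median log2 fold change -1.27). None was called by edgeR, DESeq2 or limma voom, and 0 had an unadjusted p under 0.05 in edgeR. These genes summed to 214, 115 and 43.9 CPM in *CycGΔP* discs and to 401, 103 and 592 CPM in control discs, with control disc 2 within the *CycGΔP* range. The Cpr sum without *Cpr49Ac*, by contrast, varied little between libraries, though genes within it differed in both directions. Among 7 tested Tweedle genes, another cuticle protein family, 5 were above 0 and 2 below, with a median of 0.56. At an unadjusted edgeR p under 0.05, 1 was higher (6.65% of all tested genes) and 1 lower (8.07%). Of the 5 above 0, *TwdlX*, *TwdlY*, *TwdlZ* and *Twdlalpha* were highest in *CycGΔP* disc 2 and *TwdlT* in *CycGΔP* disc 3. *Twdlalpha*, for example, was at 0.495, 3.76 and 1.40 CPM in *CycGΔP* discs and at 1.25, 0.221 and 0.697 CPM in control discs. All 4 tested members of the CPAP chitin-binding proteins with obstructor names were below 0, with a median of -0.19. Of these, 1 was lower at an unadjusted edgeR p under 0.05 (8.07% of all tested genes). Neither the Tweedle nor the CPAP genes had a call by edgeR, DESeq2 or limma voom.

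Of 22 tested genes of chitin synthesis, assembly and turnover, 9 were above 0 and 13 below, with a median of -0.10. A single gene passed the edgeR test (1.42% of all tested genes), the chitinase *Cht7*. It was at 53.9, 54.0 and 49.2 CPM in control discs and at 38.3, 33.7 and 29.5 CPM in *CycGΔP* discs (log2 fold change -0.63 ± 0.105 SE, adjusted p of 0.0477). DESeq2 called it as the single gene of the list (5.44% of the genes it gave an adjusted p), and limma voom called 0, with an adjusted p of 0.0554 for *Cht7*. Of 9 tested zona pellucida (ZP) domain proteins of the apical matrix, 8 were above 0 with a median of 0.42. At an unadjusted edgeR p under 0.05, 4 were higher (6.65% of all tested genes) and 0 lower (8.07%). By adjusted p, edgeR and limma voom called 0, and DESeq2 called 1, higher (2.37% of the genes it gave an adjusted p). Of 20 tested ecdysone response genes, 14 were above 0 with a median of 0.22, 7 were higher (6.65% of all tested genes) and 1 lower (8.07%) at an unadjusted p under 0.05, and edgeR called 1 (1.42%), the nuclear receptor gene *Eip78C*, at 77.1, 80.7 and 92.4 CPM in *CycGΔP* discs and 38.5, 48.4 and 53.5 CPM in control discs (0.83 ± 0.137, adjusted p of 0.0462). DESeq2 called 4 of these genes higher (2.37% of the genes it gave an adjusted p) and 1 lower (3.07%). With limma voom 0 were called, with an adjusted p of 0.0508 for *Eip78C*. All tested genes had a median of 0.012, and nothing particular to these lists was tested.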

How the data were processed

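Libraries were made from poly(A) RNA and read from a single end over 50 bp. The authors aligned the reads to dm6 with TopHat2 2.0.10 (per the labels and the study's methods), counted unambiguously placed reads per Ensembl gene and deposited whole-number counts. A second deposited table holds the counts divided by the authors' size factors as a normalized signal, used here only for an alternative minimum. Samples were grouped by the genotype in the labels. Symbols, coordinates and exon lengths came from FlyBase names and an Ensembl annotation of dm6 that may differ from the annotation counted; 17219 of 17478 identifiers had a symbol, and all 70 Cpr genes matched. The test was that of edgeR 4.0.16, run in R 4.3.3 (TMM, expression filter by group, robust quasi-likelihood test without covariates, Benjamini-Hochberg adjustment over all 9408 tested genes, threshold 0.05). The biological coefficient of variation was 30.0%. Standard errors are the fold change divided by the root of the F statistic. Limits from 3 reads cover counting error only.

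Values by library are given for the 10 described genes with the highest mean CPM, those with an unadjusted p under 0.05, and those without overlap and with a log2 fold change beyond 1. A few others are named after their values were seen: *Cpr47Eb*, *Cpr11A*, *Cpr49Af* and genes just outside the minimum. The members, gene lists and rules were chosen with earlier results of these data known. Alternatives were RLE and upper-quartile factors, DESeq2 1.42.0, limma 3.58.1 voom, other filters and thresholds, each library left out, and the replicate number as a block. The scripts were tested on counts simulated with the same dispersion for all genes. There edgeR recovered 19 of 100 genes with a log2 fold change of 1 either way and 96 of 100 with a log2 fold change of 2. No sequences were used here.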

Additional observations from a re-analysis of the deposited data

How the results depend on the processing

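The described Cpr genes had 0 calls in edgeR, and the same 0 with RLE or upper-quartile factors and with the replicate block. They had 1 call without a filter and 2 with at least 10 reads in every library (all lower), 6 with DESeq2 (3 higher, 3 lower), 2 with limma voom (both lower) and 3 at an adjusted p under 0.1. Leaving out 1 library gave 0 to 1 calls, with 0 to 1 lower. Over all genes the 134 calls became 560 with DESeq2, 14 and 278 at adjusted p under 0.01 and 0.1, and 11 to 78 with 1 library left out. The median of all 27 tested Cpr genes, -0.56, was -0.38 without a filter, over 62 genes, and -0.95 (without *CycGΔP* replicate 1) to -0.42 with 1 library left out. The log2 ratio of summed CPM, 0.43, was -0.0395 without *Cpr49Ac*. *Cpr65Ec* turned to 0.019 and 0.14 without *CycGΔP* replicate 2 and control replicate 3 (-0.20 to 0.14 with 1 library left out). Of 219 values of single genes under the alternatives, 205 kept their direction and side of the threshold, 12 passed it and 2 turned. Added after the data were seen: leaving out 1 library gave 4 to 9 lower genes at an unadjusted p under 0.05 (9 with all; 4 without *CycGΔP* replicate 3), 4 to 7 genes above all controls (4 with all; 12.4 to 18.6% of all tested genes), 9 to 12 below them (8 with all; 15.1 to 19.4%) and a median of -1.09 to -0.62 for genes under 10 CPM; the number below 0 stayed between 15 and 21, at 15 where a filter kept 22 genes. For pairing, deviations of same-numbered libraries correlated at -0.12, -0.29 and -0.15, no *CycGΔP* library correlated best with its own number, and the numbers were not read as pairs; the replicate block left 2 calls over all genes. Genes under 10 CPM rest on few reads, which limits their fold changes.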
